A study of Arabidopsis thaliana with 12 samples.

Results

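GH9B8, GH9B11, GH9B12 and GH9B16 are the 4 Arabidopsis thaliana genes of class B of glycosyl hydrolase family 9 that have an array probe of their own. They were chosen as the single-gene probes that the platform annotation gives these names, 4 of 692 such probes and of 3439 probes in all. Total RNA came from wild-type plants of ecotype Columbia 0, and the labels name no tissue. The plants behind 6 water arrays were given water over 4 h, and then ascorbate (25 mM, pH 5.5) over another 4 h. For 6 staurosporine arrays, 2 µM staurosporine, a broad inhibitor of protein kinases, replaced the water. All 12 arrays therefore carry the ascorbate treatment, and no array without it was analysed here. The genes were selected on their values in this comparison, so the differences between the groups are given as a description, with no p-value for any of the 4.

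Enzymes of this family are endoglucanases, which cut internal bonds of beta-linked glucan chains such as cellulose. Class A members are anchored in membranes, and one of them, KORRIGAN, takes part in cellulose synthesis. Class B members, which include the 4 genes described here, are secreted and consist mainly of the catalytic domain. Class C members carry an additional carbohydrate-binding module. In plants the family is known for roles in wall assembly, cell expansion, fruit ripening and organ shedding, and the members differ in where they are expressed.

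The gene table of the TAIR10.1 assembly lists 25 genes of the family, 17 of them named as class B. Of the 25, 4 had a probe of their own, 8 were represented only on probes shared with other genes, and 13 had no probe assigned in the annotation used here. GH9B11 (AT2G44560) and GH9B12 (AT2G44570) lie next to each other on chromosome 2 and follow GH9B9 and GH9B10 in an unbroken run of 4 genes. GH9B16 (AT4G38990) lies on chromosome 4 and is followed directly by GH9B17 and GH9B18. GH9B8 (AT2G32990) lies on chromosome 2 with no family member beside it. Neighbouring genes of 1 family can be alike in sequence, and how far a probe also binds a relative was not tested. Each array is named by its group and the replicate number of its title, 1 to 6.

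The deposited values are relative intensities without an absolute unit, and the levels below were quantile normalized between arrays. A value shows how 1 probe differs between arrays, and levels of different probes are not set against each other. Arrays 1 and 2, 3 and 4, and 5 and 6 of a group, called number pairs here, were more alike than other arrays of the group, with Spearman correlations of 0.889 to 0.987 against 0.825 to 0.917. Group levels are therefore given as mean ± SD over the 3 number pairs. The labels do not tell whether the arrays within a group stand for separate plants, so p-values here reflect array-to-array spread alone, part or all of which may be technical. When each of the 12 arrays counted as a sample, limma called 788 of 3439 probes (22.9%) at an adjusted p of 0.05, and 154 of the 692 single-gene probes (22.3%). Of the 788, staurosporine arrays were higher for 381 and lower for 407. The split was 343 higher and 223 lower without further normalization, and 240 higher and 458 lower when each array was centred on its median. Over all probes, the median log2 change stood at -0.12 for quantile-normalized values, 0.19 for values not normalized further and -0.10 for centred ones. With each number pair averaged to 1 sample, 9 probes passed (0.262%).

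GH9B11 was lower after staurosporine on every array, while GH9B16 was lower at 5 of the 6 replicate numbers, GH9B12 varied widely among the staurosporine arrays, and GH9B8 was at or below the floor of measurable values on 4 of 12 arrays. GH9B11 and GH9B16 were among the 788 probes that passed over 12 arrays, both lower, and GH9B12 and GH9B8 were not. This count of 2 of 4 stands beside a background of 22.9% of all probes in either direction and 11.8% lower, and nothing is read from it because the genes were chosen with these values known. With number pairs averaged, none of the 4 was among the 9 probes that passed limma. The 3 genes above 0 on all arrays had a median log2 change of -0.55, beside -0.02 for all 2584 such probes. Because the genes were chosen with their values known, nothing is read from this difference either.

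GH9B11, an endoglucanase gene of the run on chromosome 2, was the member whose groups did not overlap. Its normalized intensity after water was 0.560, 0.495, 0.648, 0.578, 0.503 and 0.445 on arrays 1 to 6. After staurosporine it was 0.301, 0.206, 0.264, 0.129, 0.304 and 0.205. The lowest water array, number 6, lay above the highest staurosporine array, number 5. A complete separation in this direction was seen for 7.68% of all probes. The group levels were 0.538 ± 0.0699 after water and 0.235 ± 0.0332 after staurosporine (SD, n = 3 number pairs). The log2 change was -1.24 ± 0.21 (SE of the fit over 12 arrays), which is a level 2.37-fold lower after staurosporine. The SE was 0.25 with number pairs averaged and 0.40 with the pair as a random block.

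**Figure D1:**
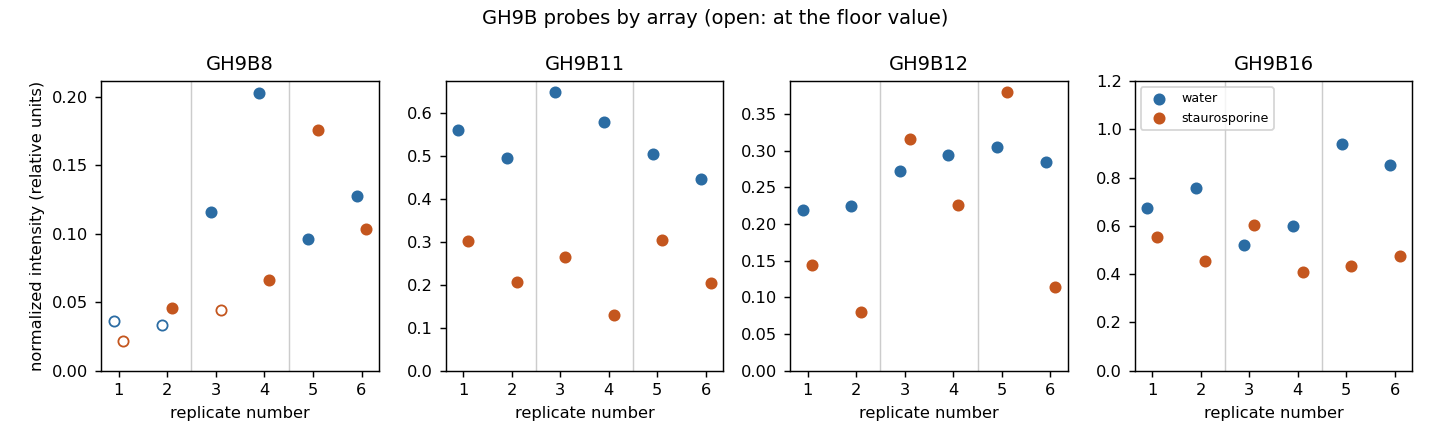
Normalized intensity (relative units, linear axis from 0) of the 4 GH9B probes against replicate number, with 1 point per array, water in blue and staurosporine in orange, and open points at the floor given to values at or near 0. Vertical lines separate the number pairs, and the axes of the panels differ. The 6 staurosporine points of GH9B11 lie between 0.129 and 0.304, below all water points, while the groups overlap in the other 3 panels.

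The differences between same-numbered arrays of GH9B11 were -0.89, -1.27, -1.30, -2.16, -0.73 and -1.12 on the log2 scale for numbers 1 to 6. All 6 were below 0, as they were for 15.2% of all probes. Number 4 had the greatest difference and held the lowest staurosporine array. Averaged by number pair, the differences were -1.08, -1.73 and -0.92. In the deposited values, before quantile normalization, the groups overlapped, with 0.356 to 0.654 after water and 0.0879 to 0.407 after staurosporine. Each staurosporine array was nevertheless below the water array of its number in those values too, at 6 of 6 numbers.

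The scatter of GH9B11 was wider after staurosporine than after water. Its log2 SD over 6 arrays was 0.19 after water and 0.47 after staurosporine. For the 2584 probes above 0 on every array the median of this SD was 0.34 in the water group and 0.38 in the staurosporine group. The difference between the SDs of GH9B11 was not tested. Leaving out any 1 array moved its log2 change only between -1.33 and -1.08, and leaving out a number pair from both groups gave -1.33 without numbers 1 and 2, -1.002 without numbers 3 and 4 and -1.40 without numbers 5 and 6. Its call was kept without any 1 array and without any 1 number pair, but it ended with number pairs averaged or taken as a random block. GH9B11 was chosen with these values known, so nothing is read from a kept call, here or in the fits below.

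**Figure D2:**
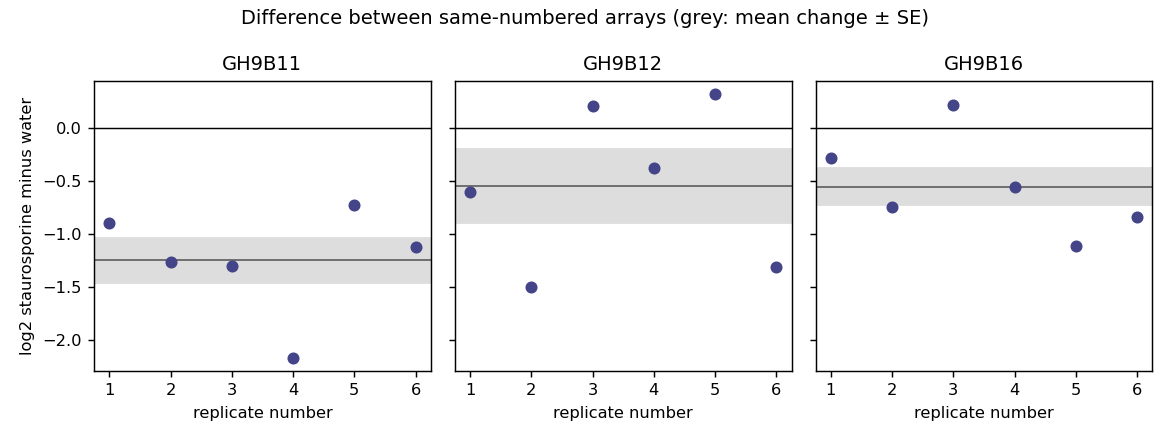
Log2 difference of staurosporine minus water between same-numbered arrays for GH9B11, GH9B12 and GH9B16, with replicate number on the x axis and 1 point per number. The grey line and band give the log2 change over 12 arrays and its SE. All points of GH9B11 lie below 0, between -2.16 and -0.73, while those of GH9B12 lie on both sides of 0 and GH9B16 has 1 point above it.

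GH9B12, the direct neighbour of GH9B11, had overlapping groups. After water its normalized intensity was 0.219, 0.224, 0.273, 0.294, 0.305 and 0.285 on arrays 1 to 6. After staurosporine it was 0.144, 0.0795, 0.315, 0.225, 0.380 and 0.115. The staurosporine arrays lay on both sides of the water range, with 3 below it, numbers 1, 2 and 6, and 2 above it, numbers 3 and 5. The group levels were 0.267 ± 0.0395 and 0.210 ± 0.0858 (SD, n = 3 number pairs), and the log2 change was -0.54 ± 0.35 (SE over 12 arrays). With number pairs averaged the SE was 0.39, and with the pair as a random block 0.61. The same-numbered differences ran from -1.49 at number 2 to 0.32 at number 5, and 4 of 6 were below 0.

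The spread of GH9B12 was mainly within the staurosporine group. Its highest array was 4.78 times its lowest there, and 1.40 times after water. Even arrays of 1 number pair differed, with 0.380 on number 5 and 0.115 on number 6 after staurosporine. The pooled SD within number pairs was 0.58 on the log2 scale for GH9B12, against a median of 0.23 over the probes above 0 on all arrays. In the deposited values the staurosporine array was lower at only 3 of 6 numbers. Without further normalization its log2 change was -0.13, below the median of all probes at 0.19, and its size thus depended on the scaling.

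The ratio of GH9B11 to GH9B12 within an array was also compared. In the deposited values, where no scale factor of an array enters a ratio, it was 3.57, 2.85, 2.45, 2.01, 1.66 and 1.56 on water arrays 1 to 6. On staurosporine arrays 1 to 6 it was 2.21, 2.62, 0.820, 0.465, 0.851 and 1.52. In these values the ratio was lower after staurosporine at 6 of 6 numbers, although by little at numbers 2 and 6, and the ranges of the groups overlapped. After quantile normalization, which does change such ratios, it was lower at 4 numbers and higher at numbers 2 and 6, with 2.21 and 1.56 after water and 2.59 and 1.79 after staurosporine. The probes thus changed unequally at numbers 1, 3, 4 and 5 in the same direction on both scales, and the direction at numbers 2 and 6 depended on the scaling. This ratio was chosen after its values were seen.

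GH9B16, the first gene of the run on chromosome 4, was lower after staurosporine at 5 of 6 numbers, and most at numbers 5 and 6. In the deposited values it was lower at 4 numbers and higher at numbers 1 and 3. After water its normalized intensity was 0.676, 0.759, 0.520, 0.600, 0.939 and 0.851 on arrays 1 to 6. After staurosporine it was 0.556, 0.454, 0.604, 0.407, 0.435 and 0.475. The groups overlapped through water arrays 3 and 4 and staurosporine arrays 1 and 3, and 4 of the 6 staurosporine arrays lay below every water array. The group levels were 0.724 ± 0.168 and 0.488 ± 0.0290 (SD, n = 3 number pairs). The log2 change was -0.55 ± 0.18 (SE over 12 arrays), or 1.47-fold lower after staurosporine. With number pairs averaged the SE was 0.26, and with the pair as a random block 0.27.

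The same-numbered differences of GH9B16 were -0.28, -0.74, 0.22, -0.56, -1.11 and -0.84 on the log2 scale. By number pair they were -0.51, -0.17 and -0.98, so the pair of numbers 5 and 6 held the greatest difference and the middle pair the smallest. Those numbers also had the 2 highest water arrays. The log2 SD of GH9B16 was 0.32 over 6 water arrays and 0.22 over 6 staurosporine arrays, both below the medians of 0.34 and 0.38 over the 2584 probes above 0 on all arrays. Without numbers 5 and 6 of both groups the log2 change was -0.34, and without numbers 3 and 4 it was -0.74. Its call over 12 arrays was lost with the replicate number as a block (SE 0.20), a fit that called 23.5% of all probes and GH9B11 alone of the 4 genes. The call was also lost without further normalization, with number pairs averaged, with a random block for the number pair, and without numbers 1 and 2 or numbers 5 and 6. It ended as well in 8 of 12 fits without 1 array, namely water 1, 2, 5 or 6 or staurosporine 2, 4, 5 or 6.

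GH9B8 gave too little signal for a fold change. It was listed at 0 on staurosporine arrays 1 and 3, and water arrays 1 and 2 had deposited values of 0.00107 and 0.000895, below the floor of their arrays. On the other water arrays, 3 to 6, its normalized intensity was 0.116, 0.203, 0.0965 and 0.128. On staurosporine arrays 2, 4, 5 and 6 it was 0.0458, 0.0665, 0.176 and 0.104. High and low arrays occurred in both groups, and the deposited value was lower after staurosporine at 3 numbers and higher at 3. The deposited values of GH9B8 stood between percentiles 6.44 and 29.9 of the probes on their array.

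**Figure D3:**
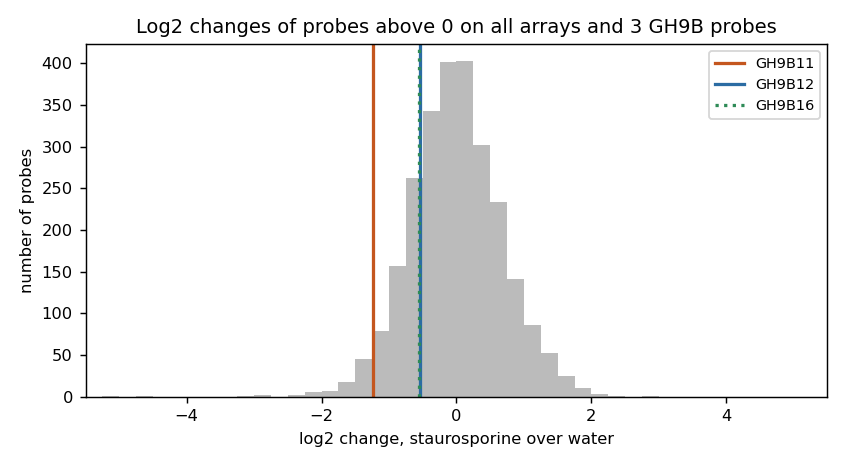
Number of probes (y axis) by log2 change of staurosporine over water (x axis, bins of 0.25) for the 2584 probes above 0 on all 12 arrays, with lines at GH9B11, GH9B12 and GH9B16. GH9B11 at -1.24 lies at percentile 3.21, while GH9B12 at -0.54 and GH9B16 at -0.55 lie almost on 1 line at percentiles 20.5 and 20.1.

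Among the 2584 probes above 0 on all arrays, the log2 change of GH9B11 stood at percentile 3.21, that of GH9B16 at 20.1 and that of GH9B12 at 20.5. GH9B12 and GH9B16 thus had nearly equal mean changes, although their arrays differed in scatter, with SEs of 0.35 and 0.18. Their intensities moved differently from array to array, as the same-numbered differences show.

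Probes that several GH9 genes share add readings of the same gene runs, though no value on them belongs to 1 gene. Probe 1466 is assigned to the 4 genes of the chromosome 2 run, GH9B11 and GH9B12 among them. Its normalized intensity was 0.199, 0.162, 0.344, 0.258, 0.195 and 0.319 on water arrays 1 to 6, and 0.117, 0.0142, 0.289, 0.236, 0.494 and 0.277 on staurosporine arrays 1 to 6. The groups overlapped, unlike those of the GH9B11 probe. Staurosporine arrays were lower at 5 of 6 numbers, with log2 differences of -3.51 to -0.13, and higher at number 5, with 1.34. In the deposited values this probe was lower at 3 numbers and higher at 3. Its log2 change was -0.59 ± 0.71 (SE), 0.11 without staurosporine array 2, its lowest array, and -0.92 without staurosporine array 5, its highest. On staurosporine array 2 its log2 value of -6.14 lay just above the floor of that array, -6.25. Probe 1478, shared by GH9B9 and GH9B10, had a log2 change of 0.30 ± 0.37. Neither probe passed the test over 12 arrays.

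On chromosome 4, probe 3160 is shared by GH9B16, GH9B17 and GH9B18. Its levels were 0.417 ± 0.0660 after water and 0.367 ± 0.106 after staurosporine (SD, n = 3 number pairs), with a log2 change of -0.23 ± 0.23 (SE). By number pair its differences were -0.22, 0.42 and -0.90, in the same order as those of GH9B16. The ratio of the GH9B16 probe to this shared probe in the deposited values ranged from 1.44 to 2.36 on water arrays and from 0.832 to 1.90 on staurosporine arrays. In those values it was lower after staurosporine at 6 of 6 numbers, and after quantile normalization at 5 of 6. The ratio of GH9B11 to probe 1466 in the deposited values was lower at 5 of 6 numbers. It went from 4.42 to 18.5 at number 2, where probe 1466 was dimmest and near the floor. Both ratios were chosen after their values were seen. Probe 2890, shared by GH9B17, GH9B18 and a gene outside the family, was listed at 0 on 3 water and 4 staurosporine arrays and has no fold here. Probe 1540, shared by the class C genes GH9C2 and GH9C3, had a log2 change of -0.35 ± 0.20 and did not pass.

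**Figure D4:**
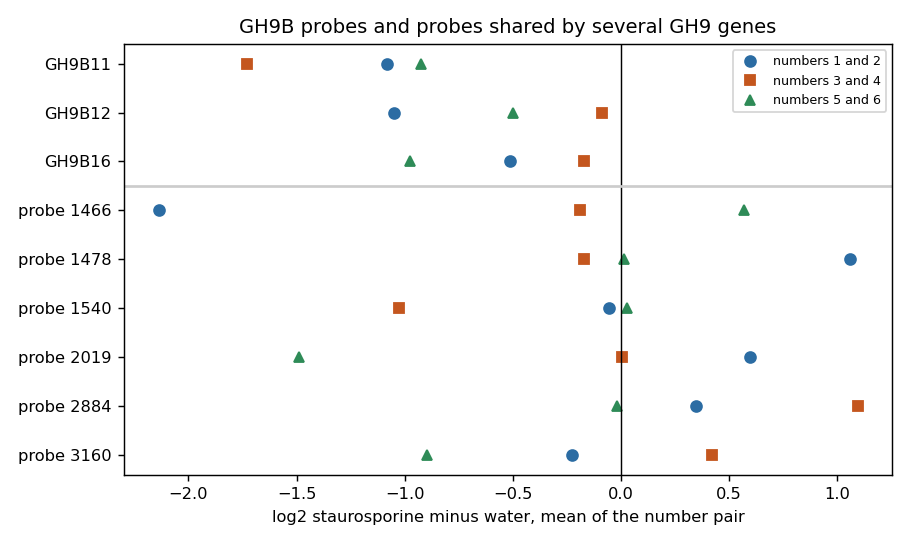
Log2 difference of staurosporine minus water (x axis), averaged within the number pairs 1 and 2 (circles), 3 and 4 (squares) and 5 and 6 (triangles), for 3 GH9B probes above the grey line and 6 shared GH9 probes below it. GH9B11, GH9B12 and GH9B16 have all 3 points below 0, while each of the 6 shared probes has points on both sides of 0. For probes 1540 and 2884 the point on the other side lies close to 0, at 0.03 and -0.02. Probe 2890, listed at 0 on 3 water and 4 staurosporine arrays, is not drawn. Its differences of -1.05, -0.22 and -2.89 were also below 0 but rest partly on floor values.

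The genes most like each member over the 12 arrays were found by the root-mean-square difference of log2 profiles, each centred on its own mean, among single-gene probes above 0 on all arrays. The measure includes the group difference itself, so it is a description. For GH9B11 the nearest were AT3G50350 at 0.27, AT3G04500 at 0.33 and AT5G50350 at 0.35, with a median of 0.81 over 525 genes. For GH9B12 they were AT1G31220, AT2G05120 and AT3G54210, at 0.38 to 0.40 with a median of 0.78. For GH9B16 they were AT2G29870 at 0.23, CML30, a calmodulin-like gene, at 0.25 and AT2G46630 at 0.25, with a median of 0.58. For GH9B8 the nearest were AT4G17440, AT5G24690 and AT1G12800 at 0.60 to 0.64, which rests partly on floor values. No other member was among the 3 nearest of any member. GH9B12 was in place 161 of 525 for GH9B11, and GH9B16 was in place 47.

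Other genes of the cell wall could hardly be read. No single-gene probe matched the lists of xyloglucan enzymes, expansins, cellulose synthesis partners, pectin enzymes, wall glycosidases, or arabinogalactan and extensin proteins. The list of cellulose and hemicellulose synthases had 1 measured gene, CSLA01 (AT4G16590), of the cellulose synthase-like A group known for mannan synthesis. It did not pass, with normalized intensities of 0.103 to 0.366 on water arrays and of up to 0.236 on staurosporine arrays. It was listed at 0 on 2 staurosporine arrays, so its log2 change of -1.74 ± 0.91 (limma adjusted p 0.199) depends on the treatment of values of 0, and was -0.80 with 1 common floor for all arrays. Of the markers listed for cell types, 4 genes of green tissue had a probe. The photosystem I subunit gene PSAN (log2 change -1.73 ± 0.13, SE) and the antenna gene LHB1B2 (-0.65 ± 0.17) passed over 12 arrays and were lower. The photosystem II genes PSBY (-0.41 ± 0.19) and PSBW (0.28 ± 0.14) did not pass, and PSBW went the other way. Of all probes, 22.9% passed in either direction and 11.8% were lower. No listed root, seed, trichome, myrosin cell or guard cell marker had a probe of its own, so the part of cell makeup in these differences was not tested. In whole plants or tissues, fewer cells of a type and less RNA per cell cannot be told apart.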

How the data were processed

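Total RNA of 12 samples was hybridised to single-channel arrays, and groups and replicate numbers were taken from the sample titles. The deposited values are linear intensities from 0 to 100, and the sources used here do not say how the authors made these intensities. The members and gene lists were chosen with earlier results of these data known. Intensities were quantile normalized. Values listed at 0, and those under the 1st percentile of an array's positive values, were raised to that floor, and log2 was taken. The lowest floor was -9.05 and the highest -4.15 (log2), and probes near them are given no fold. The number of arrays limits the precision.

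Groups were compared over all 3439 probes in R 4.3.3 with limma 3.58.1 (lmFit, eBayes, Benjamini-Hochberg, 2-sided, threshold 0.05). The fit was tested on simulated data. The simulated arrays were independent, so that test does not cover the likeness within number pairs. Probes were named through the platform annotation, updated by gene identifier to the TAIR10.1 gene table: 692 probes have 1 gene, 870 several and 1877 none, and 690 of the 692 matched. No coordinates are printed, since the arrays name no build. Named genes are the 4 members, the 3 nearest profiles of each, and listed wall genes with a probe. The replicate numbers of the titles may pair arrays across groups. Deviations of same-numbered arrays from the mean of their group correlated at 0.297 to 0.545 for all 6 numbers. Over the probes above 0 on all arrays they correlated at 0.158 to 0.273. Arrays of different numbers were not compared across groups, so pairing by single number was not tested. The replicate block was therefore run as an alternative. Protein identity among the members had been planned and was not analysed here. The highest and lowest array of a group were checked with Dixon's ratio at 0.625. This covered 18 groups with at most 1 array at the floor, and none lay beyond it. The check takes arrays as independent, so 2 alike arrays of a number pair can hide each other. It used linear intensity, on which a low array stands out less than on the log2 scale.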

Additional observations from a re-analysis of the deposited data

How the results depend on the processing

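The log2 changes of GH9B11, GH9B12 and GH9B16 stayed below 0 in all 24 alternatives run. Several of the alternatives could not move these changes and altered only the SE. Those were the replicate block, the averaged or blocked number pairs, the common floor and the fit on probes above 0 on all arrays. The changes ran from -1.40 to -1.002 for GH9B11, -0.77 to -0.13 for GH9B12 and -0.74 to -0.34 for GH9B16. In the alternatives that could move them, none moved by more than the SD of the same-numbered differences. For GH9B8 they ran from -0.82 to 0.07, and it was left out of the fit on probes above 0 on all arrays. The count of probes that passed limma was 788 and depended most on how the number pairs were treated. It was 9 with number pairs averaged, 191 when the pair was a random block, and 2 with the pair as a block on averaged pairs, chosen after the data were seen. The replicate block gave 809 probes (23.5%), and the call of GH9B16 ended while that of GH9B11 did not; averaging leaves fewer samples. Leaving out 1 array gave 615 to 748 probes and leaving out a number pair 410 to 630, with 472 without numbers 1 and 2 and 410 without numbers 5 and 6. Dim signal limits GH9B8 most.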

Other observations

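Probes 2019 and 2884 are both assigned to the same pair of class B genes, GH9B14 and GH9B15, and did not give the same reading. The normalized intensity of probe 2019 was 0.537 on water array 4 and 0.355 on water array 6, and that of probe 2884 was 0.0994 and 0.989 on the same arrays. Their log2 changes were -0.29 ± 0.62 and 0.48 ± 0.68 (SE over 12 arrays), and neither passed limma at an adjusted p of 0.05. On both probes, both arrays of numbers 1 and 2 were higher after staurosporine than the water arrays of those numbers. These values were chosen after they were seen.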
